A study of Mus musculus with 3 samples.

Results

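The genes of the cadherin switch and of mesenchymal transition were followed through 3 cultures of the cardiac lineage, with 10 members taken by name: the cadherins Cdh1, Cdh2 and Cdh11, the transcription factors Snai1, Snai2, Twist1, Twist2, Zeb1 and Zeb2, and the intermediate filament gene Vim. The CPCC and CB tables listed all 10, and the mESC table listed 8, without Twist2 and Zeb2. In each table every listed gene reached at least 1 count in some cell, and whether unlisted genes had no counts was not tested. Of all genes, 22439, 23371 and 24229 were listed for mESC, CPCC and CB.

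Cadherins are calcium-dependent adhesion proteins that hold like cells together and anchor to actin through catenins. In an epithelial to mesenchymal transition, cells lose E-cadherin (Cdh1) and their junctions, take up N-cadherin (Cdh2) or cadherin 11 (Cdh11), fill with vimentin (Vim) and become motile, and transition factors of the Snail, Twist and Zeb families bind E-box motifs and repress Cdh1. In the embryo such transitions accompany the formation of mesoderm at the primitive streak, and later the endocardial cells that form the valve cushions and the epicardial cells that form fibroblasts and smooth muscle.

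All cells came from male F1 mouse embryonic stem cells of a C57BL/6 x CAST/EiJ cross, and the labels name no deletion or transgene. mESC are the undifferentiated stem cells, kept in medium with LIF and inhibitors that hold them in the ground state. CPCC are heterogeneous cultures of cardiac precursor cells, grown from dissociated embryoid bodies in medium with EGF and Fgf2. Those embryoid bodies had themselves been formed in ascorbic acid medium. CB are cardiac bodies, floating aggregates made in ascorbic acid medium, of which the rhythmically beating ones were picked. The study used 3 clones, but neither the labels nor the column names tie a cell to a clone, so each culture is 1 sample and no difference between cultures has a replicate check.

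There were 215 cells of mESC, 175 of CPCC and 232 of CB, in 3, 2 and 3 pools that the column names number, and each pool belonged to 1 culture. The median cell had 1528316, 1437414 and 1397869 counts in that order, and 203, 169 and 219 cells reached 100000 counts. A cell is called positive for a gene here at 10 or more counts per 1000000 (CPM), among cells of 100000 or more counts. Levels are the CPM of the summed counts of a culture, intervals are exact 95% Poisson or Clopper-Pearson intervals that cover counting error only, and ratios are log2 ratios of CPM + 1. At least 3 of 10 pluripotency markers were positive in all 203 mESC, in 103 of 169 CPCC cells and in 1 of 219 CB cells, where 8 of the 10 were listed, without Pou5f1 and Dppa5a. At least 3 of 10 cardiomyocyte markers were positive in 7 CB cells and in 1 CPCC cell, so most CB cells did not carry the markers of beating muscle. In mESC, where 9 of the 10 were listed, at least 3 were positive in 14 cells. At least 3 of 8 macrophage markers were positive in 21 CPCC and 5 CB cells.

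Cdh1, the adhesion protein of epithelia and of stem cell colonies, differed little in level between the cultures and strongly in the share of cells that carried it. Its level of 95.4 CPM in mESC (interval 94.4 to 96.4) compared with 80.9 CPM (79.9 to 82.0) for CPCC and 66.4 CPM (65.5 to 67.3) for CB. Positive were 188 of 203 mESC (92.6%, interval 88.1 to 95.8), 103 of 169 CPCC cells (60.9%, 53.2 to 68.4) and 64 of 219 CB cells (29.2%, 23.3 to 35.7). These intervals did not overlap, but the shares of mESC and CPCC did so by pool. The pools held 97.7%, 91.55% and 84.4% in mESC, 85.9% and 39.6% in CPCC, and 23.8%, 26.4% and 35.7% in CB. Among positive cells the median Cdh1 value went up as the share of all cells went down, with 88.9, 112 and 188 CPM from mESC to CB. The CB level therefore came from fewer cells with more Cdh1 each. With every cell thinned to 100000 counts, at least 1 count was left in 92.1%, 60.9% and 30.1% of cells.

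The pools of mESC held 120, 85.1 and 82.4 CPM of Cdh1, and the CB pools held 67.5, 63.3 and 68.8 CPM. The 2 CPCC pools lay far apart, at 128 and 36.4 CPM, with 67 of 78 and 36 of 91 cells positive. The mESC and CB pools did not overlap, and the CPCC pools lay on either side of both. In pool 2 of CPCC, 1 cell gave 26.8% of all Cdh1 counts. The log2 ratio of CB over mESC was -0.52, below 0 in all 9 pairs of pools (-0.92 to -0.26), and that of CPCC over mESC was -0.24, below 0 in 3 of 6 pairs.

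Cdh11, the cadherin of loose mesenchyme and of bone-forming and fibroblast cells, had the largest ratio between cultures of the 8 members listed in all 3. It was at 0.0554 CPM in mESC (interval 0.0326 to 0.0845), where no cell was positive. That is 0 of 203 cells, which allows a share of up to 1.48% by a limit of 3 cells and up to 1.80% by the Clopper-Pearson interval. In CPCC it stood at 129 CPM with 39 of 169 cells positive (23.1%, 17.0 to 30.2). The CB level was 355 CPM with 118 of 219 cells positive (53.9%, 47.0 to 60.6). The CPCC pools held 15.5 and 235 CPM, and the CB pools held 423, 174 and 491 CPM. Every CPCC and CB pool was far above the mESC pools, of which the highest held 0.117 CPM, while the CPCC and CB pools overlapped. The log2 ratio was 6.94 in CPCC over mESC (3.89 to 7.86 over the 6 pairs of pools) and 8.40 in CB over mESC (7.30 to 8.92 over 9 pairs). In CPCC, 1 cell gave 16.8% of the Cdh11 counts, and the level without it was 108 CPM.

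Cdh2, the cadherin of neural tissue and of the junctions between cardiomyocytes, was highest in CPCC. Its level was 47.9 CPM there, against 2.24 CPM in mESC and 25.3 CPM in CB. The mESC pools held 2.61, 2.76 and 1.16 CPM, the CPCC pools 20.4 and 73.6 CPM, and the CB pools 22.4, 42.8 and 10.53 CPM. All CPCC and CB pools exceeded all mESC pools, and CPCC and CB overlapped. Positive cells were 6.90%, 31.4% and 26.03% in mESC, CPCC and CB. The log2 ratio of CB over CPCC was -0.89, with 2 of 6 pairs of pools above 0. It was -1.07 under edgeR's TMM factors and -1.08 under DESeq2's size factors, past the 2-fold limit. Neural markers moved with Cdh2 in CPCC, where 31 of the 39 cells with at least 3 of 6 neural markers had it (79.5%), against 22 of the other 130 (16.9%). Those cells rest mainly on Tubb3, Nes and Ncam1, which were positive in 59.8%, 43.8% and 36.1% of CPCC cells, while Sox1, Pax6 and Map2 were positive in 4.73%, 9.47% and 1.18%. Smooth muscle and fibroblast markers did too, with Cdh2 in 45 of 76 and 30 of 36 marked cells, and the parts of these cells in the Cdh2 level were not tested.

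Vim, the filament protein of mesenchymal and many migrating cells, was present in all 3 cultures and differed in level. The stem cells held 41.9 CPM, the CPCC 702 CPM and the CB 565 CPM. The mESC pools held 41.0, 45.8 and 37.8 CPM, the CPCC pools 474 and 916 CPM, and the CB pools 620, 727 and 392 CPM. The mESC pools lay apart from the rest, with log2 ratios of 4.03 in CPCC and 3.72 in CB over mESC. The share of positive cells barely followed, with 67.0% of mESC (60.1 to 73.4), 74.6% of CPCC cells (67.3 to 80.9) and 74.4% of CB cells (68.1 to 80.1), and these intervals overlapped. The median among positive cells was 46.0 CPM for mESC, against 208 CPM for CPCC and 538 CPM for CB. By pool this median was 52.7, 45.8 and 40.1 CPM in mESC and 587, 470 and 538 CPM in CB. The CPCC pools had medians of 55.8 and 1036 CPM, so neither lay between those of mESC and CB as the value over all CPCC cells did.

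**Figure D1:**
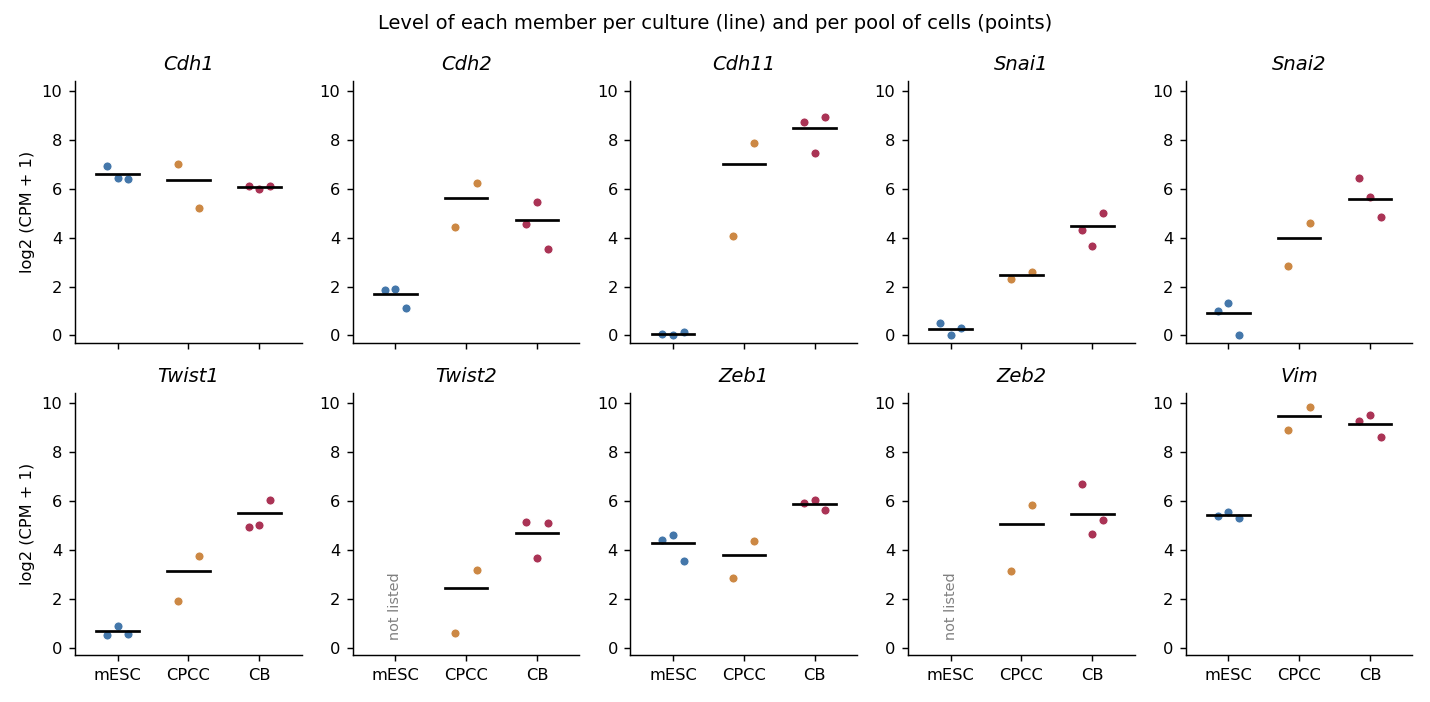
Level of each of the 10 members as log2 (CPM + 1), with 1 panel per gene and the 3 cultures along the x axis; points are pools of cells and lines are all cells of a culture. The lines of Cdh1 lie between 66.4 and 95.4 CPM, with pools from 36.4 to 128 CPM, while the line of Cdh11 goes from 0.0554 CPM in mESC to 355 CPM in CB, and Twist2 and Zeb2 are not listed in mESC.

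Snai1, a zinc finger repressor that acts early in transitions and in gastrulation, went from 0.202 CPM in mESC (interval 0.158 to 0.255) to 4.51 CPM in CPCC, and reached 21.2 CPM in CB. The pools held 0.416, 0 and 0.242 CPM in mESC, 3.94 and 5.04 CPM in CPCC, and 18.99, 11.8 and 30.9 CPM in CB. The pools of the 3 cultures did not overlap. Positive were 1 of 203 mESC, 24 of 169 CPCC cells (14.2%) and 68 of 219 CB cells (31.1%). The promoter is shown because Snai1, alone of the members matched, had in the 250 bases before its start the E-box that the Snail and Zeb proteins bind. RefSeq promoters were matched for 5 of the 10 members (Snai1, Twist1, Twist2, Zeb2 and Vim), and not for Cdh1, Cdh2, Cdh11, Snai2 and Zeb1. Both strands were searched for CAGGTG, which reads CACCTG on the other strand. In the stretch below, from 5′ to 3′, at chr2:167538019-167538124 on the plus strand of GRCm38.p6, capitals mark the motif, which covers bases 126 to 121 before the start.
Snai1: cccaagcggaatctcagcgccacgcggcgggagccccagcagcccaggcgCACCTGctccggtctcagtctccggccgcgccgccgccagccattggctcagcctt
The motif was present in 17.2% of all 32851 promoter windows, and it was not found in the windows of Twist1, Twist2, Vim or any of the 4 starts of Zeb2. A match describes these letters only.

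Snai2, the second Snail factor, known from neural crest and from the endocardial cushion, measured 0.908 CPM in stem cells, against 14.9 CPM in CPCC and 46.8 in CB. Its pools held 1.004, 1.52 and 0 CPM, then 6.14 and 23.0 CPM, then 86.7, 49.1 and 27.4 CPM, with no overlap between cultures. It was carried by few cells with a high value each: 46 of 219 CB cells were positive (21%), at a median of 189 CPM, the highest median among positive CB cells of the 6 factors.

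Twist1, a basic helix-loop-helix factor of head and cushion mesenchyme, had 0.609, 7.70 and 44.8 CPM in mESC, CPCC and CB. Its pools held 0.434, 0.859 and 0.465 CPM, then 2.69 and 12.4 CPM, then 29.9, 30.9 and 64.2 CPM, again without overlap. Of the 6 factors it had the highest share of positive cells in CB, 87 of 219 (39.7%), with an interval (33.2 to 46.5) that overlapped those of Zeb1, Zeb2 and Snai1. Twist2, its close relative in dermis and bone precursors, had 4.41 CPM in CPCC, against 25.03 CPM in CB. The CPCC pools held 0.532 and 8.03 CPM and the CB pools 34.1, 11.7 and 33.3 CPM. In CPCC, 1 cell gave 26.7% of the Twist2 counts, and the level without it was 3.30 CPM. Of all stretches of 50 bases in Twist2 transcripts, 45.7% lie on an antisense gene, Gm29100, which was listed only in CB, at 0.564 CPM. The use of strand in counting is not stated, so the pair cannot be told apart there.

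Zeb1, a zinc finger repressor of Cdh1, had the highest level in stem cells of the 4 factors listed there. That level was 18.6 CPM, compared with 12.9 CPM for CPCC and 56.8 CPM for CB. The mESC pools held 19.8, 23.5 and 10.6 CPM, the CPCC pools 6.17 and 19.2 CPM and the CB pools 59.9, 64.5 and 48.3 CPM. The CB pools lay above all others, and those of mESC and CPCC overlapped. Positive were 87 of 203 mESC (42.9%, 35.9 to 49.97), 37 of 169 CPCC cells (21.9%, 15.9 to 28.9) and 84 of 219 CB cells (38.4%, 31.9 to 45.2). The mESC share thus exceeded that of CPCC and overlapped that of CB.

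Zeb2, the second Zeb factor, which also acts in neural crest and in blood cells, had 32.4 CPM in CPCC, against 43.6 CPM in CB. Its pools held 7.79 and 55.5 CPM in CPCC and 102, 24.1 and 36.1 CPM in CB, with overlap. Macrophage markers moved with it. Of the 21 CPCC cells with at least 3 macrophage markers, 14 were positive for Zeb2, against 27 of the other 148. All 21 came from pool 2, which had the higher Zeb2 level, and the CPCC level was 14.6 CPM with those 21 cells left out and 134 CPM within them. The log2 ratio of CB over CPCC was 0.42 in all cells and 1.48 without macrophage-marked cells, and over the 6 pairs of pools in all cells it ran from -1.17 to 3.56. Zeb2os, an antisense gene over part of Zeb2, stood at 3.68 CPM in CPCC, against 2.82 CPM in CB.

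**Figure D2:**
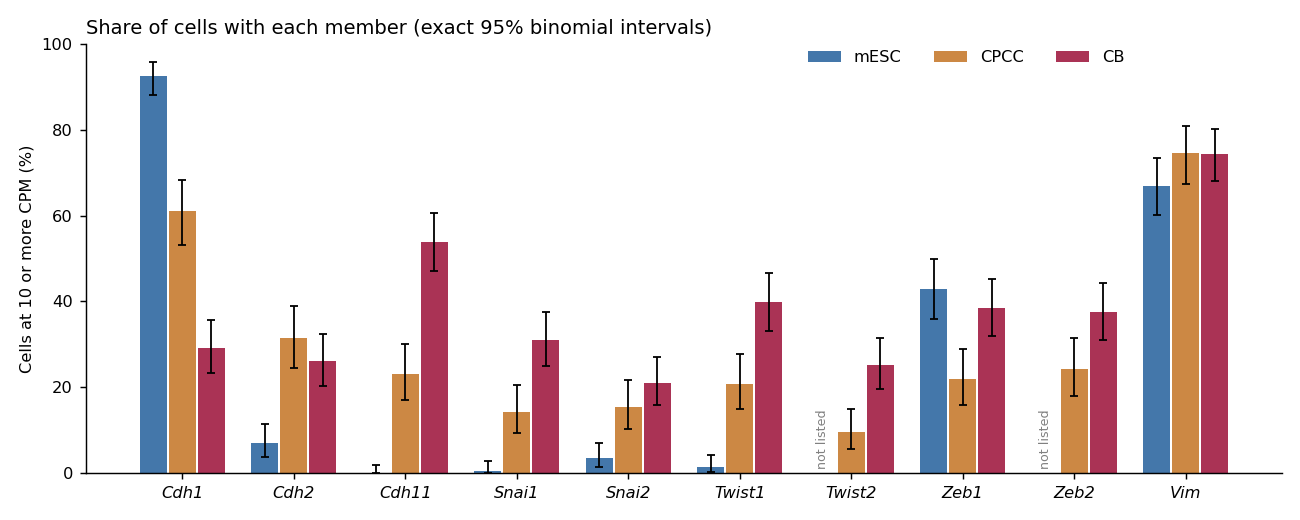
Percent of cells at 10 or more CPM for each member, among 203 mESC, 169 CPCC and 219 CB cells of 100000 or more counts; bars are shares and lines their exact 95% binomial intervals. The Cdh1 bars step down from 92.6% to 60.9% to 29.2%, the Cdh11 bars step up from 0 to 23.1% to 53.9%, and the Vim bars stay between 67.0% and 74.6%.

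Per kilobase of exon, the members were ordered differently in each culture. The length used merged the exons of all transcripts of a gene, such as 19942 bases for Zeb2 and 10266 for Zeb1, and the order depends on it. In mESC, Cdh1 led at 20.9 CPM per kilobase, followed by Vim at 8.84 and Zeb1 at 1.81, and the next, Snai2, was at 0.449. In CPCC, Vim led at 148 CPM per kilobase, Cdh1 (17.7) and Cdh11 (14.5) came next, and the factors ranged from 1.26 for Zeb1 to 7.35 for Snai2. In CB, Vim stood at 119 CPM per kilobase and Cdh11 at 39.8. There Twist1 (27.5) and Snai2 (23.2) exceeded Cdh1 (14.5), while Cdh2 (3.14) and Zeb2 (2.19) were lowest.

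Set against all genes, 6 of the 8 members compared were at least 2-fold higher in CPCC than in mESC (Cdh2, Cdh11, Snai1, Snai2, Twist1 and Vim), where 17.5% of 15471 genes were. None was at least 2-fold lower, where 8.36% of genes were. In CB over mESC, 7 of 8 were at least 2-fold higher, with Zeb1 added at a log2 ratio of 1.56, against 30.8% of 16018 genes, and none was lower, against 14% of genes. In CB over CPCC, 6 of 10 were at least 2-fold higher (Cdh11, Snai1, Snai2, Twist1, Twist2 and Zeb1), against 21.3% of 16764 genes, and none was lower, against 9.44%, though Cdh2 was lower under both other scalings. The median log2 ratio of the members was 2.75, 3.96 and 1.52 in the 3 comparisons, and that of all genes was -0.01, 0.29 and 0.22. Under edgeR's TMM factors the median over all genes in CB over mESC was 0.13. These are values of single cultures, and no test was possible.

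Whether Cdh1 excludes the mesenchymal genes was read over cells, and the answer depended on the culture. In mESC it did not exclude Vim: 129 of 188 Cdh1-positive cells were Vim-positive (68.6%, 61.5 to 75.2), against 7 of 15 cells without Cdh1 (46.7%, 21.3 to 73.4). Spearman's rho over the 203 cells was -0.002. The 14 Cdh2-positive mESC were all Cdh1-positive, and Cdh11 gave no positive cell. The 15 mESC without Cdh1 were shallower, with a median of 720587 counts against 1684752.

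In CPCC, Cdh11 was seldom in a cell with Cdh1. It was positive in 4 of 103 cells with Cdh1 (3.88%, 1.07 to 9.65) and in 35 of 66 cells without (53.0%, 40.3 to 65.4), a difference of -49.1 percentage points (interval -60.9 to -36.0) with rho = -0.47 over 169 cells. Cdh2 was positive in 18 of 103 cells with Cdh1 (17.5%, 10.7 to 26.2) and in 35 of 66 without (53.0%), a difference of -35.5 points (-48.6 to -21.0). Vim overlapped with Cdh1 far more, at 69 of 103 cells with Cdh1 (67.0%, 57.0 to 75.9) and 57 of 66 without (86.4%, 75.7 to 93.6). Vim and Cdh1 thus shared 40.8% of all CPCC cells.

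The 69 CPCC cells with both Cdh1 and Vim had a median of 51.2 CPM of Vim, against 1370 CPM in the 57 with Vim only. Among all 103 CPCC cells with Cdh1 the median Vim value was 30.1 CPM, near the 26.2 CPM of Cdh1-positive mESC, and among CPCC cells without Cdh1 it was 1107 CPM. At a limit of 50 CPM for both genes, Vim was positive in 27 of 85 cells with Cdh1 (31.8%) and 63 of 84 without (75%), a difference of -43.2 points in place of -19.4 at 10 CPM. The Spearman correlation over the CPCC cells was -0.55, lower than that of all but 46 of 9041 genes compared with Cdh1, whose median rho was 0.14.

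In CB, Vim was much less frequent in cells with Cdh1 than in cells without, though not absent from them. Vim was positive in 21 of 64 cells with Cdh1 (32.8%, 21.6 to 45.7) and in 142 of 155 cells without (91.6%, 86.1 to 95.5), a difference of -58.8 points (-69.6 to -45.5). The median Vim value was 0.807 CPM with Cdh1 and 555 CPM without. The Spearman correlation was -0.62 over 219 cells, and of the 7268 genes positive in at least 25% of those cells, none had a lower rho with Cdh1 than Vim. Cdh11 was positive in 11 of 64 cells with Cdh1 (17.2%, 8.90 to 28.7) and in 107 of 155 without (69.0%, 61.1 to 76.2), at rho = -0.46, with 11 genes lower. Cdh2 was positive in 7 of 64 and 50 of 155 cells (10.9% and 32.3%), at rho = -0.20, with 400 of the 7268 genes lower. In CPCC, 448 of 9041 genes were lower than Cdh2 (rho = -0.37). Of the 64 CB cells with Cdh1, 39 had none of Cdh2, Cdh11 and Vim and 1 had all 3, while 34 of the 155 cells without Cdh1 had all 3.

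**Figure D3:**
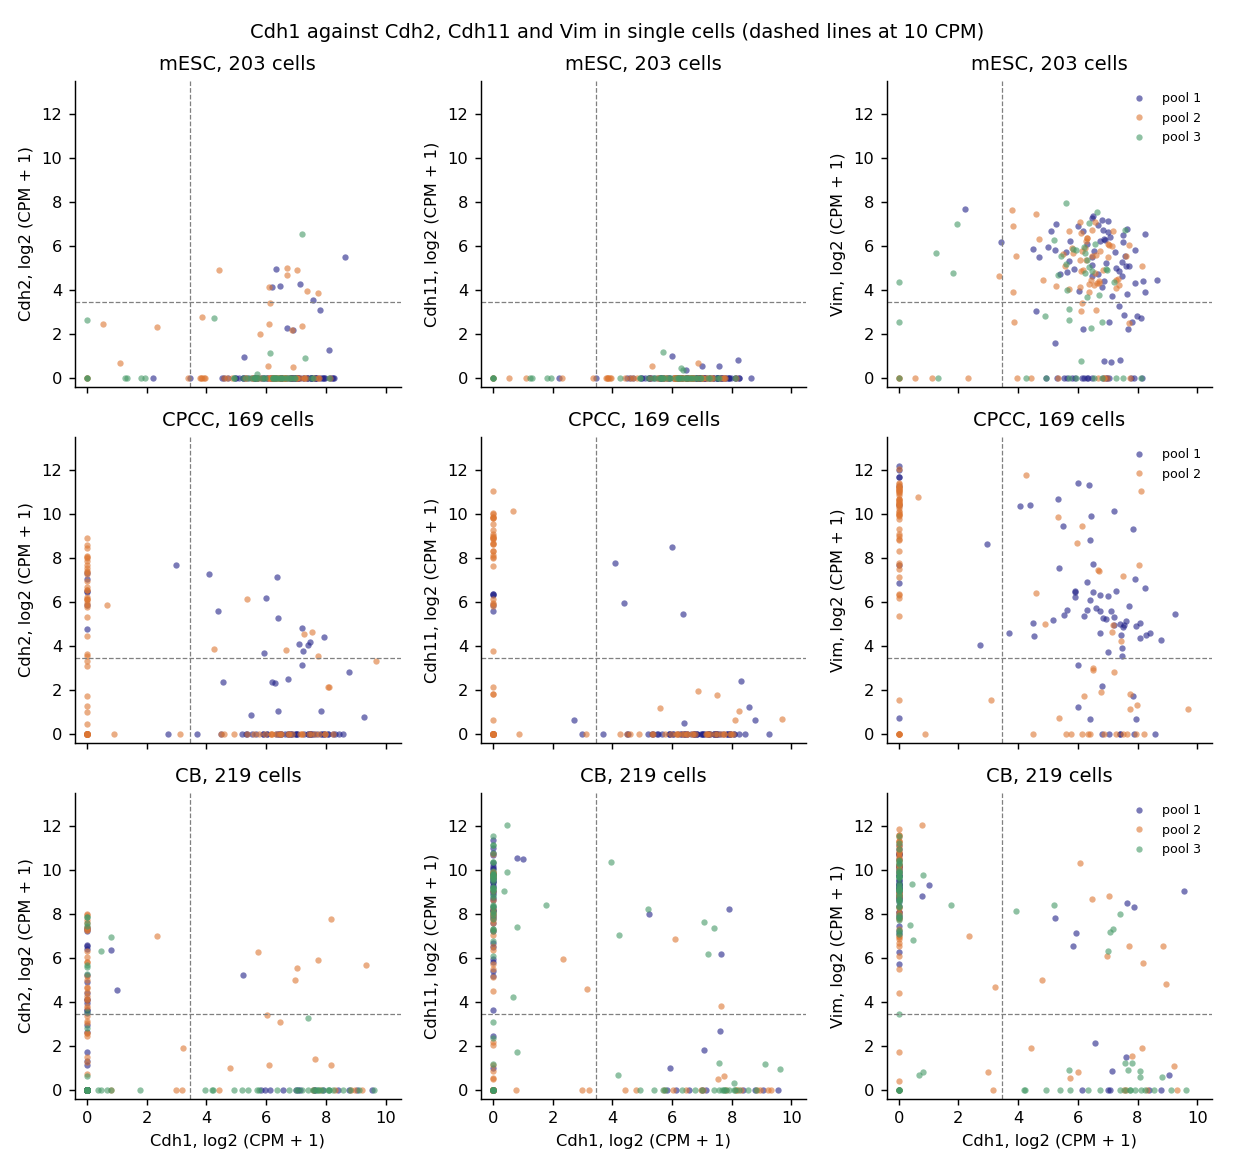
Cdh1 on the x axis against Cdh2, Cdh11 and Vim on the y axes, as log2 (CPM + 1) of single cells, with rows for mESC (203 cells), CPCC (169) and CB (219), colours for pools, and dashed lines at 10 CPM. In CB the upper right field of the Vim panel holds 21 cells and the upper left 142, while in mESC the upper right field holds 129.

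The sign was the same within each pool of CPCC and CB, the size varied, and not every interval lay below 0. For Cdh11 the difference was -39.5 and -54.5 points in the CPCC pools and -61.2, -38.5 and -57.8 points in the CB pools. For Vim it was -8.82 and -46.6 points in CPCC and -60.0, -41.3 and -67.0 points in CB, so that pool 1 of CPCC, where 55 of 67 Cdh1-positive cells had Vim, held most of the overlap. The interval of Vim in that pool, with 11 cells without Cdh1, was -22.0 to 20.8 points. For Cdh2 it was -45.7 and -34.2 points in CPCC and -28.8, -11.8 and -18.5 points in CB, of which the interval of pool 2 of CB included 0 (-32.8 to 13.8). The Vim difference was -9.40 points (-18.9 to 1.94) in CPCC and -29.7 points in CB when 1 count sufficed. At that limit 51 of 78 CB cells with Cdh1 had Vim (65.4%).

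Pluripotency markers moved with Cdh1 in CPCC. Of the 103 Cdh1-positive CPCC cells, 93 had at least 3 pluripotency markers. The other 10 all had Vim, 4 had Cdh2 and 3 had Cdh11, against 54, 35 and 35 of the 56 cells with neither Cdh1 nor those markers. Without the marked cells the Vim difference was 3.57 points (interval -24.3 to 12.1) and that of Cdh11 was -32.5 points (-54.9 to 0.529). That of Cdh2 was -22.5 points (-48.4 to 9.08). Each rests on 10 Cdh1-positive cells, and each interval includes 0. In CB only 1 cell had 3 pluripotency markers, and the differences without it were -58.3 points for Vim and -51.6 points for Cdh11. With cells of 3 macrophage or 3 endothelial markers left out, the CPCC differences were -14.2 points for Vim and -63.6 points for Cdh11, and those of CB -58.0 and -59.7 points. The interval of this Vim difference in CPCC (-28.2 to 2.91) included 0.

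**Figure D4:**
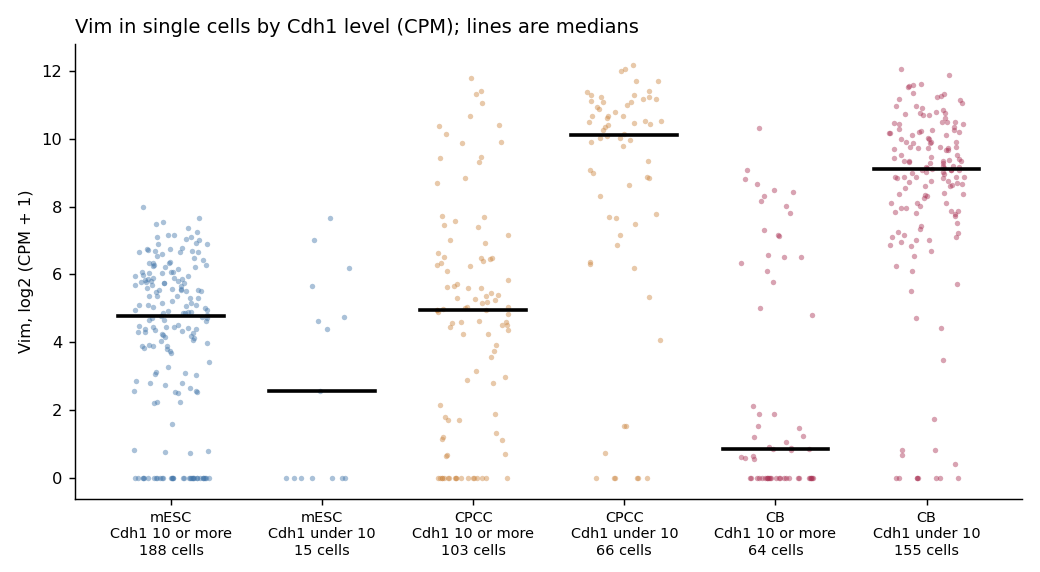
Vim as log2 (CPM + 1) in single cells of each culture, split at 10 CPM of Cdh1, with lines at the medians. The medians of Cdh1-positive cells are 26.2, 30.1 and 0.807 CPM from left to right, and those of the other cells 4.88, 1107 and 555 CPM.

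The Cdh1-positive cells of the 2 differentiated cultures differed in the company that Cdh1 kept. The 3 genes with the most similar pattern in CPCC were Dnmt3b (rho = 0.77), a DNA methyltransferase of early embryonic cells, Epcam (0.76), an epithelial adhesion protein also found on stem cells, and the amino acid transporter Slc7a3 (0.76), over 169 cells and 9041 genes. In CB they were Epcam (0.78), Cldn4 (0.78) and Cldn7 (0.77), all proteins of epithelial contacts, over 219 cells and 7268 genes. In mESC, where nearly all cells carried Cdh1, the highest values were lower, at 0.41 for Ciapin1, 0.38 for Ssbp4 and 0.35 for Acsl3. Cells with Cdh1 and no Cdh11 had a median summed level of the 10 epithelial markers of 701 CPM in CPCC and 3762 CPM in CB. Their median sum of pluripotency markers was 5788 CPM over 10 genes in CPCC and 83.8 CPM over the 8 genes listed in CB, so these sums are not over the same genes.

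Vim was most like Itgb1 (0.79), an integrin chain, Lgals1 (0.77), a galectin, and Cd44 (0.76), a hyaluronan receptor, in CPCC. In CB it was most like the basement membrane gene Nid1 (0.54), the annexin Anxa6 (0.52) and the fibrillin Fbn1 (0.52). In mESC it was most like Eif5 (0.41), Coq5 (0.35) and Stmn2 (0.32). Cdh11 in CB was most like the matrix genes Col1a2 (0.69), Fstl1 (0.67) and Col5a1 (0.67), and in CPCC it was positive in too few cells for this comparison. Cdh2 was most like Parva (0.73), Lhfp (0.70) and Tgfb1i1 (0.70) in CPCC, of which Parva and Tgfb1i1 act at focal adhesions. In CB its highest values were lower, at 0.50 for Anp32e, 0.47 for Zdbf2 and 0.46 for Tuba1b. For Anp32e and Tuba1b the value over all CB cells exceeded that within every pool (at most 0.42 and 0.34), and the pools differed in Cdh2 level. All of these are descriptions over cells that share sequencing pools and differ in depth.

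Cdh2 and Cdh11 shared cells in CPCC. There, 33 of 39 Cdh11-positive cells also had Cdh2, with rho = 0.62 over 169 cells, and in CB 37 of 118 had both, with rho = 0.12 over 219 cells. Of the Cdh2-positive cells in CPCC, 62.3% had Cdh11 (47.9 to 75.2), against 5.17% of the cells without Cdh2 (1.92 to 10.9). In CB these shares were 64.9% (51.1 to 77.1) and 50% (42.05 to 57.95), with intervals that overlapped. The difference between the cultures was not tested.

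In CPCC and CB the transition factors were found mainly in cells with Cdh11 and seldom in cells with Cdh1, while in mESC, without any Cdh11-positive cell, 83 of 188 Cdh1-positive cells had Zeb1. In CPCC, 72.7% of the 99 cells with Cdh1 and no Cdh11 had none of the 6 factors positive, while all 35 cells with Cdh11 and no Cdh1 had at least 1 and 80.0% had 3 or more. In CB, 84.9% of the 53 cells with Cdh1 alone had no factor, against 3.74% of the 107 cells with Cdh11 alone, of which 66.4% had 3 or more. The median number of factors was 0 and 3 in both cultures. The CPCC classes divided by pool, with 63 of the 99 cells with Cdh1 in pool 1 and 30 of the 35 with Cdh11 in pool 2. Within pools 1 and 2 of CPCC, 71.4% and 75% of cells with Cdh1 alone had no factor, and 4 of 5 and 24 of 30 cells with Cdh11 alone had 3 or more. In the 3 CB pools, 8 of 12, 15 of 17 and 22 of 24 cells with Cdh1 alone had no factor, against 1 of 39, 2 of 26 and 1 of 42 with Cdh11 alone. Median counts per cell were 1274982 and 1709394 in these CPCC classes and 1484060 and 1589500 in those of CB.

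By factor, Snai1 was positive in none of the 53 CB cells with Cdh1 alone (interval up to 6.72%) and in 53 of 107 with Cdh11 alone (49.5%, 39.7 to 59.4). Twist1 was positive in 1 of 53 and 69 of 107 (64.5%, 54.7 to 73.5), and Twist2 in none of 53 and 45 of 107 (42.1%, 32.6 to 52.0). Zeb1 was positive in 2 of 53 and 52 of 107 cells (48.6%), and Zeb2 in 2 of 53 and 60 of 107 (56.1%). Snai2 was the least divided, in 4 of 53 (7.55%, 2.10 to 18.2) and 32 of 107 (29.9%, 21.4 to 39.5). In CPCC the shares were between 3.03% (Twist2) and 10.1% (Twist1) with Cdh1 alone. With Cdh11 alone they were between 34.3% (Twist2) and 71.4% (Zeb1).

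The 48 CB cells with neither Cdh1 nor Cdh11 were not without mesenchymal genes. Of these, 44 had Vim (91.7%), 14 had Cdh2 (29.2%), 25 had Zeb1 (52.1%, 37.2 to 66.7) and 17 had Zeb2 (35.4%). Twist1 was positive in 13 (27.1%), Snai1 in 9 (18.8%), and Snai2 and Twist2 in 7 each (14.6%). Endothelial markers moved with this class, since 18 of the 48 cells had at least 3 of the 10, and 6 of 107 cells with Cdh11 alone did. All 24 CB cells with 3 endothelial markers had Vim, 18 had Zeb1, 15 had Zeb2 and none had Cdh1. Of these 24 cells 23 came from pool 2, which also held 27 of the 48. Their Vim level was 1870 CPM, and the CB level without them was 401 CPM. Of the 31 CPCC cells with neither Cdh1 nor Cdh11, 13 had at least 3 macrophage markers, and 11 had Zeb2 (35.5%).

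The few cells with both Cdh1 and Cdh11, 4 in CPCC and 11 in CB, held markers of both kinds. The 11 CB cells had a median of 2005 CPM in the 10 epithelial markers and of 3448 CPM in the 10 fibroblast markers, against 3762 and 11.02 CPM in cells with Cdh1 alone and 1.11 and 13610 CPM in cells with Cdh11 alone. Of them 6 had Snai1, 5 had Zeb1 and 9 had Vim. Their median Cdh1 value was 134 CPM, against 195 CPM in cells with Cdh1 alone, and their median Cdh11 value was 166 CPM, against 513 CPM in cells with Cdh11 alone. Their median count was 1325057 and their median number of detected genes 8037, against 6929 and 6558 genes in the 2 other classes. Whether some of them hold 2 cells was not tested.

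**Figure D5:**
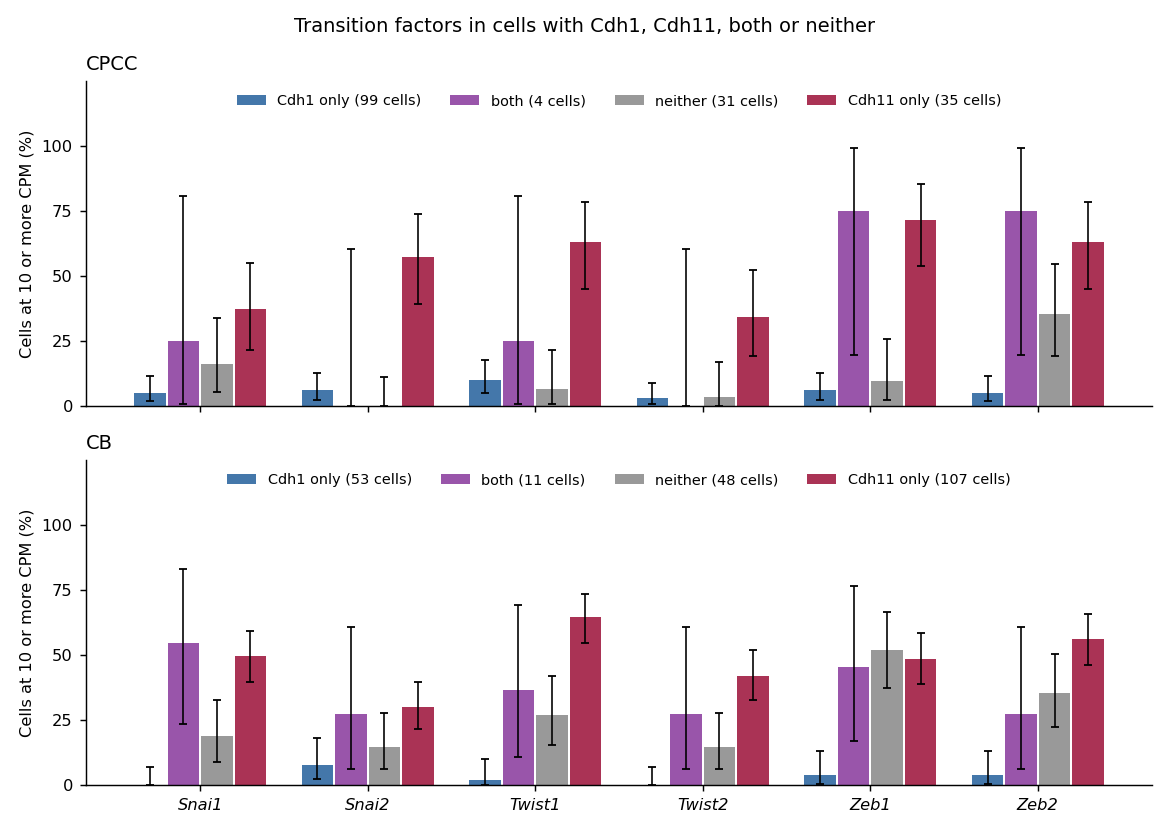
Percent of cells at 10 or more CPM for the 6 transition factors in CPCC (top) and CB (bottom), by whether a cell was positive for Cdh1 only, both Cdh1 and Cdh11, neither or Cdh11 only; lines are exact 95% binomial intervals. Cells with Cdh1 only stay at 10.1% or less for every factor in CPCC and at 7.55% or less in CB, while Zeb1 is about as frequent in CB cells with neither of them (52.1%) as with Cdh11 only (48.6%).

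Some factors shared cells, and of the pairs of factors in CB, Snai1 and Twist1 had the highest rho. Of the 68 CB cells with Snai1, 48 had Twist1 (70.6%), against 25.8% of cells without Snai1, with rho = 0.46. In CPCC the corresponding shares were 37.5% and 17.9%, with rho = 0.32. Zeb1 and Twist1 went together in CPCC, at 57.1% of Twist1-positive and 12.7% of other cells (rho = 0.43). In CB the shares were 44.8% and 34.1% (rho = 0.20), and the difference between the cultures was not tested. Some other pairs differed little in these shares. For Snai1 and Zeb2 in CPCC, 25% of Snai1-positive and 24.1% of other cells had Zeb2, though rho was 0.21. For Snai2 and Zeb1 in CB the shares were 43.5% and 37.0% (rho = 0.11). In mESC, 67 of 87 Zeb1-positive cells had Vim (77.0%), against 59.5% of the rest, and 83 of the 87 had Cdh1.

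Around the members, the lists below are read against the 30.8% of all genes at least 2-fold higher and the 14% lower in CB than in mESC. Of 7 catenins and junction partners, which carry cadherins to actin, 1 was at least 2-fold higher and none lower. That was Vcl (vinculin), at 25.1 CPM in mESC and 157 CPM in CB (log2 ratio 2.603). Ctnnb1 (beta-catenin) had a ratio of 0.72, from 430 to 708 CPM, and Ctnna1 (0.00) and Ctnnd2 (0.07) were lowest. Of 4 other cadherins compared, 3 were higher: Cdh6 at 0.0427 and 23.3 CPM, Cdh15 at 0.0940 and 4.09 CPM, and Cdh3 at 0.350 and 5.28 CPM. Cdh4 was at 2.22 and 0.908 CPM.

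Of 10 regulators of the epithelial state, 7 were at least 2-fold higher in CB than in mESC and 2 lower, against the same 30.8% and 14% of all genes. The highest ratios were those of the factor Ehf (5.76), from 0.137 to 60.5 CPM, though 1 pool of CB held only 0.0530 CPM, and of the GTPase Rab25 (4.41). The lowest were those of the factors Grhl3 (-2.16), from 44.2 to 9.11 CPM, and Elf3 (-1.37), from 153 to 58.6 CPM. Of 7 other transition factors, 3 were higher and 2 lower in CB, led by the forkhead factor Foxc1 (5.56) and the E-protein Tcf4 (2.84). Klf8 (-2.79) and Gsc (-1.33), the goosecoid gene of the organizer, stood at the other end. Snai3, named after its values were seen, was highest in CPCC, at 14.9 CPM against 1.26 in mESC and 1.12 in CB.

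Of 10 mesenchymal structural genes compared, 9 were at least 2-fold higher in CB than in mESC, against 30.8% of all genes, with Col1a2 at 0.179 and 1972 CPM and Col1a1 at 1.11 and 1000 CPM. The pools of CB ranged from 57.1 to 3505 CPM for Col1a2. Fn1 (fibronectin) was the exception, at 477 and 543 CPM (log2 ratio 0.19), and the integrin chain Itga5 had a ratio of 1.70. In CB over CPCC, 4 of 12 were higher and 3 lower, where 21.3% and 9.44% of all genes were. Of 8 corepressor genes, 1 was higher and 2 lower, where 30.8% and 14% of all genes were, with Ctbp1 at 1.24 and Rcor1 at 0.88, and with the Polycomb gene Suz12 at -1.93 and Hdac1 at -1.52.

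The marker lists placed the cultures as follows, as cells with at least 3 positive markers in mESC, CPCC and CB. Epithelial markers counted 103, 110 and 79 cells, fibroblast markers 0, 36 and 121, endothelial markers 61, 23 and 24, and smooth muscle markers 0, 76 and 58. The mESC lists were shorter under the same requirement of 3, with 5 of 10 fibroblast, 6 of 10 endothelial, 4 of 6 smooth muscle, 4 of 5 mesothelial, 9 of 10 cardiomyocyte and 3 of 8 macrophage markers listed. Neural markers counted 19, 39 and 11 cells, mesothelial markers 0, 2 and 2, cardiomyocyte markers 14, 1 and 7, and macrophage markers 0, 21 and 5. In mESC, Pecam1, Egfl7 and Eng were positive in 79.3%, 70.0% and 34.0% of cells, while Cdh5, Kdr, Tie1 and Emcn were not listed there. Of the cardiomyocyte list, Ttn and Actn2 were positive in 55.2% and 33.5% of mESC, and the other listed markers in 0 to 11.8%. Of the epithelial list, Cldn4, Epcam and Cldn3 were positive in 74.9%, 74.4% and 39.4% of mESC, and the rest in 1.97% to 18.7%. Fibroblast markers moved with the mesenchymal cadherin, at 33 of 39 Cdh11-positive cells in CPCC and 101 of 118 in CB. Of that list, Col1a1, Col1a2, Col3a1 and Postn were positive in 14.8% to 27.8% of CPCC cells. Pdgfrb, Thy1, Dcn, Pdgfra, Lum and Tcf21 were positive in 1.78% to 10.65%. In CB, Dcn, Pdgfra, Lum and Tcf21 were positive in 44.75%, 37.9%, 47.0% and 23.3%. Neural markers moved with Cdh11 in CPCC, at 26 of 39 Cdh11-positive cells. In CB they were in 7 of 118, where 5.02% of all CB cells had them. Smooth muscle markers also moved with Cdh11 in CPCC, where 37 of 39 Cdh11-positive cells had at least 3 of 6, and 50 of 118 did in CB. Of the 6, Myl9, Tagln, Acta2, Cnn1 and Actg2 were positive in 22.5% to 69.8% of CPCC cells, and Myh11 in 1.18%. Read the other way, Cdh11 was positive in 37 of 76 smooth-muscle-marked CPCC cells (48.7%) and in 50 of 58 such CB cells (86.2%). The parts of these cell types in the levels of the cultures were not tested.

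In GRCm38, Cdh1 lies at chr8:106603351-106670246 and Cdh11 on the same chromosome at chr8:102632095-102785642. Cdh2 (chr18:16588877-16809246) and Zeb1 (chr18:5591860-5775467) share chromosome 18, and Vim (chr2:13573927-13582826), Zeb2 (chr2:44983632-45117395) and Snai1 (chr2:167538195-167542814) share chromosome 2. Snai2 lies at chr16:14705852-14709385, Twist1 at chr12:33957671-33959829 and Twist2 at chr1:91801461-91848028. No stretch of 50 bases was shared between transcripts of any 2 members, so Twist1 and Twist2, or Snai1 and Snai2, do not exchange reads of that length.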

How the data were processed

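Single cells were captured on Fluidigm C1 chips, where chambers were inspected for cell number, and full-length cDNA was made with SMART-Seq v4 and Nextera XT. The authors aligned reads with STAR 2.7 to GRCm38 (mm10) and deposited a table of gene counts per cell for each culture. The deposited CPCC values are whole numbers and were used as counts, though whether they were rounded is not known. The deposited mESC and CB values were treated here like expected counts, since 32.0% and 34.6% of values above 0 are not whole. Counts were used as deposited, with rounding only for thinning and for scaling factors. In CPCC, 208 rows without a gene name and 23 rows whose symbol had become a date (0.139% of counts) were left out, and 2 columns were not used. No doublet caller was run.

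Levels were counts per 1000000 (CPM) over the summed cells. Python 3.11.15, numpy, pandas and scipy were used, with edgeR 4.0.16 and DESeq2 1.42.0 for scaling factors only, and the ratio calls were tested on simulated data. Ratios used a pseudocount of 1 CPM and a minimum of 1 CPM in either culture. Exonic lengths, over the merged exons of all transcripts of a gene, and positions came from GENCODE M21. With 1 sample per culture, no test was made.

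The members and lists were chosen with earlier results of these data known. The lists were catenins and junction partners, other cadherins, epithelial state regulators, other transition factors, mesenchymal structural genes and corepressors, with 9 marker lists. Named genes were all 10 members, the 3 genes with the highest Spearman rho for Cdh1, Cdh2, Cdh11 and Vim among genes positive in 25% of cells (Cdh1 and Vim only in mESC), and the 2 highest and 2 lowest CB over mESC ratios of each list that is not a marker list. Alternatives were other scalings, weights, pseudocounts, limits, depths and pools.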

Additional observations from a re-analysis of the deposited data

How the results depend on the processing

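No paired analysis was possible because each culture is 1 sample and no replicate numbers are shared. The counts of members at least 2-fold higher stayed within 1.5 times under every scaling, weight, pseudocount and filter, and no member's log2 ratio past 1 turned in sign under them. Between single pools, that of Cdh11 in CB over CPCC (1.45) was -0.43 in 1 of 6 pairs. Members at least 2-fold lower in CB than in CPCC numbered 1 (Cdh2) in place of 0 under edgeR's TMM factors, under DESeq2's size factors and without macrophage-marked cells, and 1 or 2 in 4 pairs of single pools, while in CPCC over mESC 1 was lower in 5 pairs of pools. The difference in the share of partner-positive cells, with minus without Cdh1, moved by over 1.5 times, turned in sign or left the interval of its main value as follows. In mESC it was 5.05 points for Cdh11 at 1 or more counts and 0.535 after thinning (from 0), for Cdh2 (7.45 points) -2.83 points at 1 or more counts, -3.41 points after thinning, 0.667 points at 50 CPM and 2.63 points in pool 3, and for Vim (21.95 points) 40.3 points at 1 or more counts, 3.70 points at 50 CPM, -36.5 points in pool 1, 63.3 points in pool 2 and 3.38 points in pool 3, on 2, 6 and 7 cells without Cdh1. In CPCC it was -63.6 points for Cdh11 without macrophage- or endothelial-marked cells and -32.5 points without pluripotency-marked cells, for Cdh2 -22.5 points without pluripotency-marked cells, and for Vim (-19.4 points) -9.40 points at 1 or more counts, -43.2 points at 50 CPM, -8.82 and -46.6 points in pools 1 and 2 and 3.57 points, with the sign turned, without pluripotency-marked cells. In CB it was -8.58 points for Cdh2 at 50 CPM and -11.8 points in pool 2, -35.6 points for Cdh11 at 1 or more counts, and for Vim -29.7 points at 1 or more counts and -41.3 points in pool 2. The cause was not tested. The settings on marked cells and single pool pairs and the factors by pool were chosen after seeing the data. Shares of cells at 1 count depend on depth, and at 10 counts or after thinning to 100000 counts they were lower for most members. In mESC only 15 cells lacked Cdh1, which limits any statement there.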
